A study of Caenorhabditis elegans with 12 samples.

Results

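The insulin-like peptides, the insulin receptor and its pathway were followed in whole Caenorhabditis elegans exposed to 3 forms of silver. The members were the insulin-like peptide genes ins-1, ins-4, ins-5, ins-6, ins-7, ins-18 and daf-28, the receptor gene daf-2, the kinase gene age-1 and the transcription factor gene daf-16. They were taken by gene name, and all 10 were on the array, out of 17118 genes with a probe set of their own. Together they had 17 of 22548 tested probe sets: 4 each for daf-2 and daf-16, 2 for age-1 and 1 for each peptide gene. No probe set that lists several genes held a member.

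Wild-type N2 (Bristol) larvae, 12 h old and age-synchronised by bleaching, were kept for 48 h without silver (control), with aged (sulfidized) nanoparticles of silver, with pristine ones, or with the salt silver nitrate (AgNO3), per the labels. All silver exposures used the concentration that affects reproduction by 30%, and the concentrations themselves are not analysed here. Each of the 4 groups had 3 arrays, hybridised with total RNA of whole populations of 2000 to 3000 animals. Whether replicates came from separate cultures is not stated, so p-values measure only the spread between these samples, which may be technical. In RNA of whole animals, fewer cells of a type and less RNA per cell cannot be told apart.

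In C. elegans, insulin-like peptides are released mainly by sensory and other neurons and by the intestine, and bind DAF-2, the only insulin/IGF receptor of the worm. The active receptor works through AGE-1, the catalytic subunit of a phosphatidylinositol 3-kinase, and the AKT kinases to keep the FOXO factor DAF-16 out of the nucleus. When signalling is low, DAF-16 enters the nucleus and turns on genes for stress resistance, and larvae may form the arrested dauer stage. Some peptides activate the receptor (INS-4, INS-6, INS-7 and DAF-28), while others act against it (INS-1 and INS-18).

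Signal is given on the log2 scale after scaling every array to a common median, with values under a signal of 16 set to 16 (4 on the log2 scale, called the floor). Array medians were 119.1 to 135.1 signal units before this scaling, and the number of arrays limits the precision. Arrays of 1 group correlated across probe sets at 0.974 to 0.982, and arrays of different groups at 0.968 to 0.983. For a gene with several probe sets the brightest stands for it, and levels are compared between groups within a probe set only. A probe set was called changed at a limma p under 0.05 after Benjamini-Hochberg adjustment over all 22548 probe sets. Each silver group was compared with the same 3 control arrays, so those 3 comparisons are not independent.

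No member was called changed in any comparison. Of all probe sets, 0.00887% were called between aged particles and control, 0.00443% between pristine particles and control and 0.133% between silver nitrate and control. The test of any difference among the 4 groups called 0.0621% of probe sets and none of the 10 genes. None was called between exposures either, where 0.111% (aged against pristine), 0.253% (aged against silver nitrate) and 0.00443% (pristine against silver nitrate) of probe sets were.

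At an unadjusted p under 0.05, ins-4 and daf-2 were lower with aged particles and no member was higher, against 4.76% of all probe sets lower and 3.49% higher. With pristine particles ins-4, ins-5 and daf-2 were lower and age-1 higher, against 4.54% and 4.09% of all probe sets. With silver nitrate the same 3 genes were lower and age-1 higher, against 7.13% and 5.17%. The shares of members that passed, 2, 4 and 4 of 10, are counts of few genes, and ins-4 was known to lie low when the members were chosen.

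By non-overlap, all aged-particle arrays lay below all control arrays for ins-4, daf-2 and daf-16 (6.7% of all probe sets below, 4.37% above). All pristine arrays lay below control for ins-4, ins-5 and daf-2 and above it for age-1 (5.98% below, 5.33% above). All silver nitrate arrays did so for the same genes (8.03% below, 6.05% above).

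**Figure D1:**
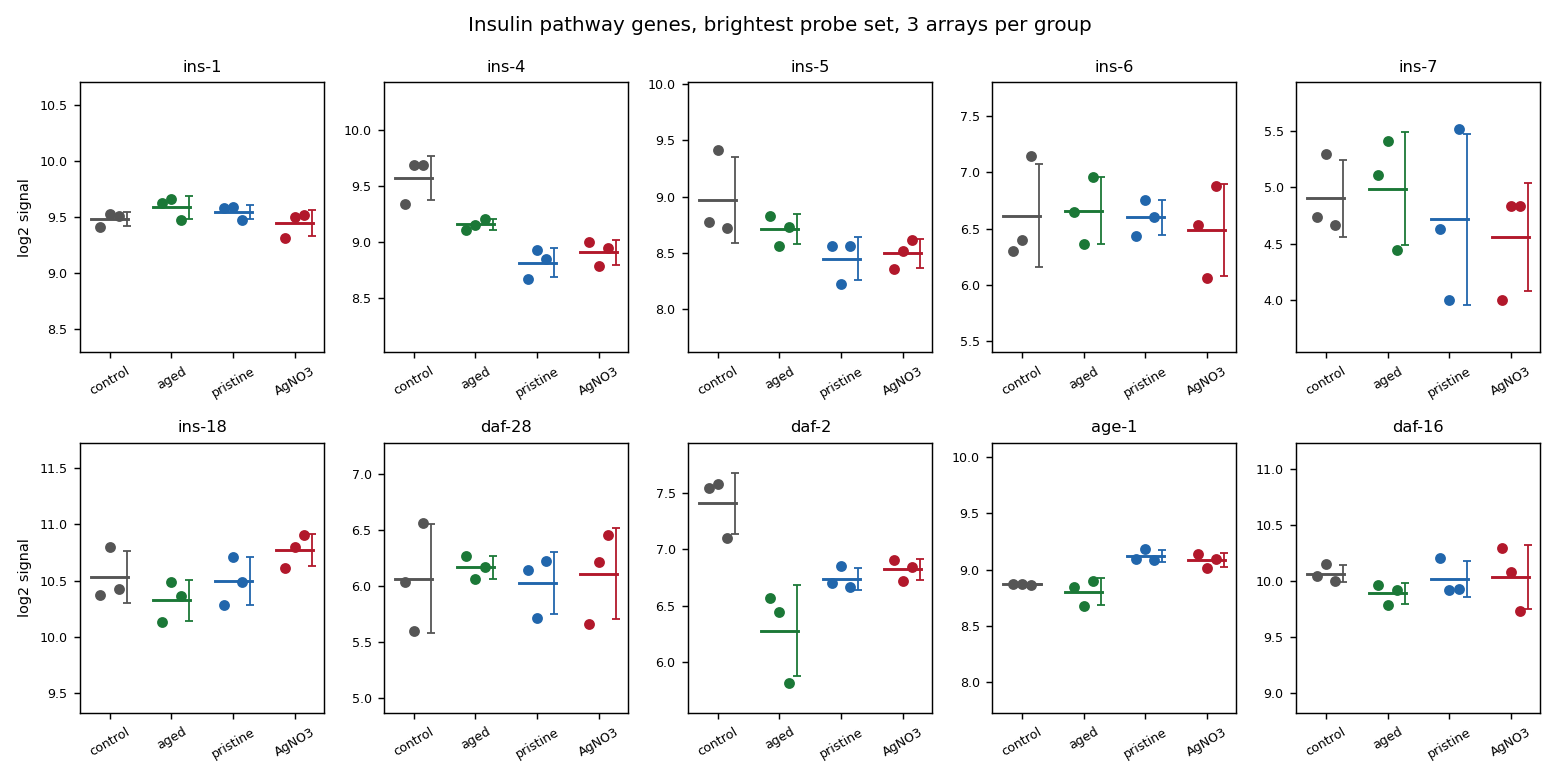
Log2 signal (vertical axis) of the brightest probe set of each of the 10 genes on every array, by group. Points are arrays, horizontal bars group means and error bars the SD of 3 arrays; each panel has its own axis. All 9 silver-exposed arrays lie below the 3 control arrays for ins-4 and daf-2.

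Among the peptides, ins-4 showed the lowest p in the test of any difference (limma adjusted p = 0.0723), which placed it at rank 92 of all probe sets. In control arrays its log2 signal was 9.34, 9.69 and 9.68. With aged particles it was 9.11, 9.16 and 9.21, with pristine particles 8.67, 8.93 and 8.85, and with silver nitrate 9.002, 8.79 and 8.94. Every exposed array lay below every control array, the aged-particle arrays lay between control and the other exposures, and pristine and silver nitrate arrays overlapped. INS-4 is an activating peptide that, with INS-6 and DAF-28, holds larvae back from dauer.

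The mean of ins-4 was 9.57 ± 0.20 in control, 9.16 ± 0.05 with aged particles, 8.82 ± 0.13 with pristine particles and 8.91 ± 0.11 with silver nitrate (SD, n = 3 arrays each). Against control the log2 difference was −0.41 ± 0.11 (SE, limma adjusted p = 0.357) with aged particles. It was −0.75 ± 0.11 with pristine particles, or 1.69-fold lower (limma adjusted p = 0.0944), and −0.66 ± 0.11 with silver nitrate, or 1.58-fold lower (limma adjusted p = 0.0702). Each difference was larger than the spread between arrays of a group, and none passed the adjusted threshold. The ins-4 value did pass for silver nitrate, and for pristine particles, among probe sets above median brightness (limma adjusted p = 0.0226 and 0.0486) and without control replicate 1 (0.0297 and 0.0305). It also passed for silver nitrate with a trend and robust variance fit (limma adjusted p = 0.0416).

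Between exposures, all aged-particle arrays lay above all pristine ones for ins-4 and, narrowly, ins-5, and below them for daf-2 and age-1 (6.85% of all probe sets above, 8.77% below). Against silver nitrate they lay above for ins-4 and below for ins-18, daf-2 and age-1 (7.49% above, 7.73% below). Pristine and silver nitrate arrays overlapped for all 10 genes (5.75% of all probe sets wholly lower with pristine particles, 7.77% wholly higher).

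For ins-4, aged particles exceeded pristine ones by 0.34 (95% interval 0.10 to 0.58, limma adjusted p = 0.307). Aged particles exceeded silver nitrate by 0.25 (0.00 to 0.49, limma adjusted p = 0.45). Pristine particles and silver nitrate differed by −0.09 (−0.34 to 0.15, limma adjusted p = 0.872). With the 3 silver groups averaged, ins-4 lay 0.61 below control (log2 difference −0.61 ± 0.09 SE, limma adjusted p = 0.148).

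The gene ins-5 lies next to ins-4 in the genome, in a run of ins-2, ins-3, ins-4, ins-5 and ins-6 with no other protein-coding gene between them. Its control arrays read 8.77, 9.41 and 8.72. Aged-particle arrays read 8.83, 8.56 and 8.73, pristine arrays 8.56, 8.22 and 8.56, and silver nitrate arrays 8.35, 8.52 and 8.61. All pristine and silver nitrate arrays lay below control, by means of −0.52 ± 0.18 and −0.47 ± 0.18 (SE, limma adjusted p = 0.477 and 0.346), whereas aged-particle arrays overlapped control (−0.26 ± 0.18, limma adjusted p = 0.756). Control replicate 2 set much of the control mean of ins-5. Without it the differences were −0.04 with aged particles, −0.30 with pristine particles and −0.25 with silver nitrate.

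The third neighbour, ins-6, whose product activates DAF-2 and promotes exit from dauer, overlapped between all groups. Control arrays read 6.30, 6.40 and 7.14, aged-particle arrays 6.65, 6.37 and 6.96, pristine arrays 6.44, 6.75 and 6.61, and silver nitrate arrays 6.53, 6.06 and 6.88. Its difference from control was 0.04, −0.02 and −0.13 in that order, and the intervals reached from −0.74 to 0.66. The ins-4 difference lay inside the ins-6 interval with aged particles and silver nitrate, whose lower ends were −0.57 and −0.74, and outside it with pristine particles (lower end −0.63). On the other side of ins-4, ins-3 differed from control by 0.09, 0.15 and −0.19 (each ± 0.18 SE) and overlapped it throughout. The dim ins-2 differed by −0.23, −0.57 and −0.40 (each ± 0.49 SE), and only its silver nitrate arrays lay wholly below control (8.03% of all probe sets).

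The other activating peptides also overlapped between groups. The gene daf-28, an activating peptide of the sensory neurons ASI and ASJ, read 6.04, 5.598 and 6.56 in control. It read 6.27, 6.06 and 6.17 with aged particles, 6.14, 5.72 and 6.22 with pristine particles and 5.66, 6.21 and 6.45 with silver nitrate. Its differences from control were 0.10, −0.04 and 0.04, each with an SE of 0.27. The gene ins-7, an intestinal and neuronal peptide that DAF-16 represses, lay near the floor throughout, with group means of 4.56 to 4.99, and 1 pristine and 1 silver nitrate array at the floor. The 95% interval of its difference from control was −0.87 to 1.04 with aged particles and −1.14 to 0.77 with pristine particles. The values were compatible with any ins-7 difference inside those intervals.

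The peptides that act against the receptor were bright on all arrays. For ins-1 all 12 arrays lay between 9.31 and 9.66, and the differences from control were 0.10, 0.06 and −0.04, each ± 0.08 SE. The 95% intervals for ins-1 kept within −0.21 and 0.28, the narrowest among the 7 peptides. For ins-18 the control arrays read 10.37, 10.80 and 10.42, aged-particle arrays 10.13, 10.49 and 10.36, pristine arrays 10.29, 10.71 and 10.49, and silver nitrate arrays 10.61, 10.80 and 10.90. Every silver nitrate array of ins-18 lay above every aged-particle array, with a difference of aged minus silver nitrate of −0.45 ± 0.15 (SE, limma adjusted p = 0.322), and both overlapped control.

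The receptor gene daf-2 had, with aged particles, the largest difference from control among the 10 genes. Its brightest probe set read 7.55, 7.59 and 7.10 in control. With aged particles it read 6.57, 6.44 and 5.81, with pristine particles 6.70, 6.85 and 6.67, and with silver nitrate 6.90, 6.72 and 6.85. Every exposed array lay below control, and every aged-particle array lay below all other arrays. Means were 7.41 ± 0.27 in control, 6.28 ± 0.41 with aged particles, 6.74 ± 0.10 with pristine particles and 6.82 ± 0.10 with silver nitrate (SD, n = 3 arrays each).

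The daf-2 difference from control was −1.14 ± 0.20 with aged particles, or 2.20-fold lower (SE, limma adjusted p = 0.184). It was −0.67 ± 0.20 with pristine particles, or 1.59-fold lower (limma adjusted p = 0.378), and −0.59 ± 0.20 with silver nitrate (limma adjusted p = 0.274). Averaged over the exposures, daf-2 lay 1.74-fold below control (limma adjusted p = 0.207). Aged minus pristine was −0.46 (95% interval −0.91 to −0.01, limma adjusted p = 0.472) and aged minus silver nitrate −0.55 ± 0.20 (SE, limma adjusted p = 0.342). Without aged replicate 3, the lowest array, the aged-particle difference was −0.90 (limma adjusted p = 0.219).

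The second probe set of daf-2 also had its highest mean in control and its lowest with aged particles, while pristine particles and silver nitrate stood in the opposite order to the brightest probe set. It read 7.25, 7.41 and 7.28 in control and 6.11, 6.19 and 5.66 with aged particles. It read 7.16, 6.84 and 6.37 with pristine particles and 6.72, 6.74 and 6.27 with silver nitrate, so all exposed arrays again lay below control. The differences were −1.33 ± 0.22, −0.52 ± 0.22 and −0.74 ± 0.22 (SE, limma adjusted p = 0.18, 0.549 and 0.218).

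Both remaining daf-2 probe sets were dim and did not follow. The third had group means of 4.78 in control, 5.20 with aged particles, 5.41 with pristine particles and 4.96 with silver nitrate, with 1 control array at the floor and all groups overlapping. The fourth lay at the floor on 7 of 12 arrays. The name of the brightest probe set ends in _x_at, an Affymetrix mark for probes that may also bind related sequences, and the other 3 end in _s_at, a mark for probes shared by several transcripts. Which daf-2 transcripts each probe set reads is not given in the sources used here.

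The difference between the 3′ and the 5′ probe sets of control transcripts, on the log2 scale, was read on the same arrays. For the worm's own Gapdh, catalase and ubiquitin it overlapped between control and every exposure (for Gapdh 0.20 to 0.28 in control, 0.25 to 0.41 with aged particles, 0.16 to 0.38 with pristine particles and 0.15 to 0.31 with silver nitrate). Some added bacterial transcripts differed. One probe pair for dap read 2.07 to 2.25 in control, 2.43 to 2.78 with aged particles, 2.32 to 2.55 with pristine particles and 2.46 to 2.80 with silver nitrate. Another dap pair read 2.33 to 2.82 in control and 3.06 to 3.21 with aged particles, and the other exposures overlapped control. A phe pair read 0.81 to 1.61 in control, 0.46 to 0.72 with aged particles and 0.45 to 0.80 with pristine particles. With silver nitrate the phe pair read 0.47 to 1.39. The pair of a further control transcript read 0.22 to 0.47 in control and −0.10 to −0.02 with silver nitrate. The part of these in the daf-2 and ins-4 values was not tested.

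**Figure D2:**
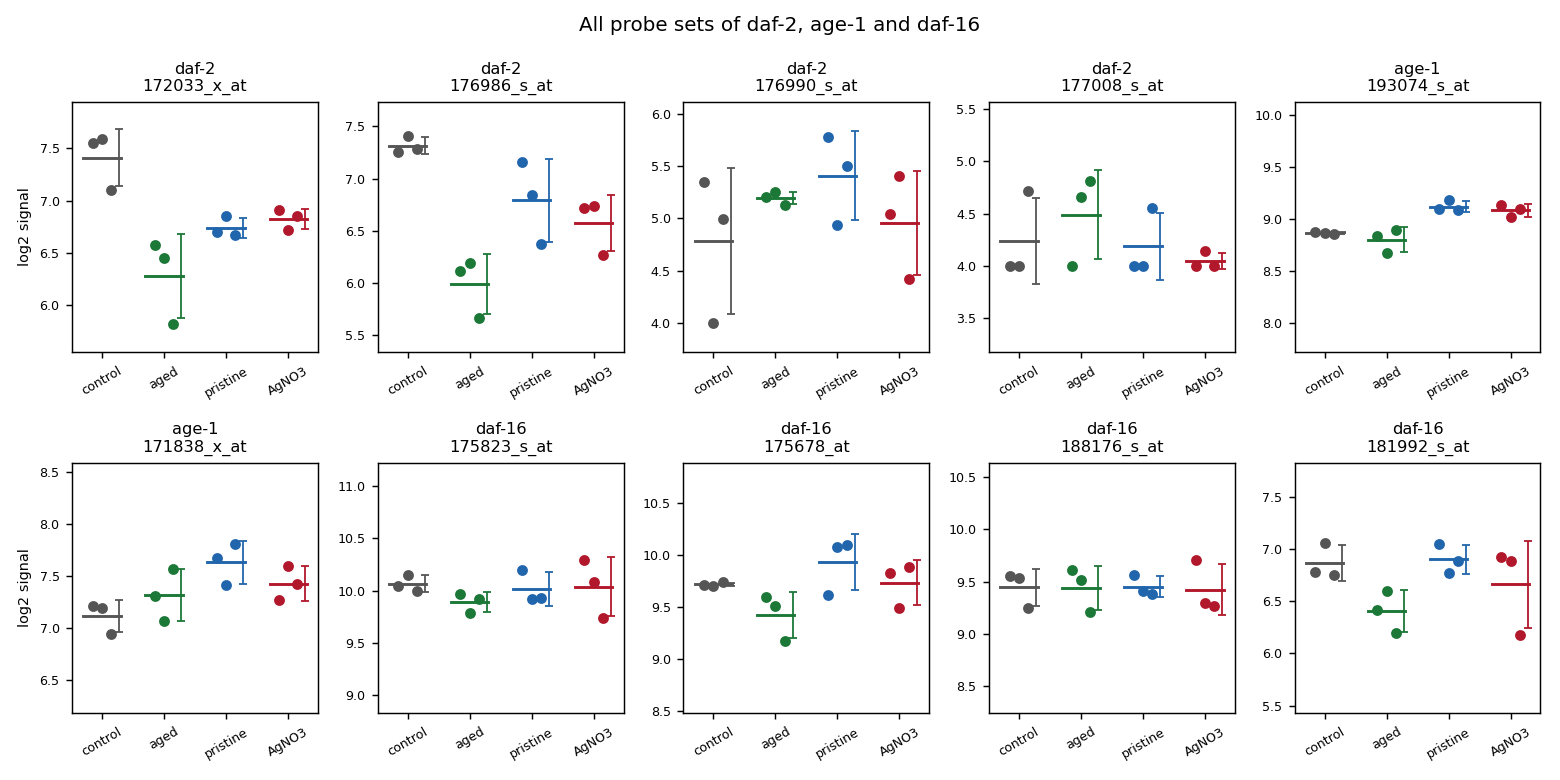
Log2 signal (vertical axis) of all probe sets of daf-2, age-1 and daf-16 on every array, by group, with points for arrays, bars for means and error bars for the SD of 3 arrays. The brightest and the second daf-2 probe set lie lower on all exposed arrays, and the dimmer ones near the floor of 4 do not. Both age-1 probe sets lie above control with pristine particles and silver nitrate.

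With all exposures together, the 9 exposed arrays lay wholly below the 3 control arrays for 2 of the 10 genes, ins-4 and daf-2, and wholly above for none. Over all probe sets, 0.825% lay wholly below and 0.461% wholly above. Since ins-4 was known to lie low when the members were chosen, the 2 of 10 cannot be tested against that share.

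The gene age-1 stood higher with pristine particles and silver nitrate. Its brightest probe set read 8.87, 8.87 and 8.86 in control and 8.84, 8.67 and 8.90 with aged particles. It read 9.09, 9.18 and 9.08 with pristine particles and 9.14, 9.02 and 9.10 with silver nitrate, and all 6 of these arrays lay above all control and aged-particle arrays. The differences from control were small: 0.25 ± 0.06 with pristine particles and 0.22 ± 0.06 with silver nitrate (SE, limma adjusted p = 0.303 and 0.212), against −0.06 ± 0.06 with aged particles (limma adjusted p = 0.839). Aged minus pristine was −0.32 (95% interval −0.46 to −0.17, limma adjusted p = 0.122), and aged minus silver nitrate −0.28 (−0.42 to −0.14, limma adjusted p = 0.141).

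The other age-1 probe set lay above control on all pristine arrays (0.51 ± 0.15 SE, limma adjusted p = 0.386) and on all silver nitrate arrays (0.31 ± 0.15, limma adjusted p = 0.472). Its aged-particle arrays overlapped control and the other exposures (0.20 ± 0.15, limma adjusted p = 0.782). Both probe sets thus placed the pristine mean highest. The name of this other age-1 probe set ends in _x_at, the mark described above for daf-2.

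The gene daf-16, the end point of the cascade, lay wholly below control with aged particles and overlapped control in the other exposures. Its brightest probe set read 10.05, 10.15 and 9.999 in control, 9.97, 9.78 and 9.92 with aged particles, 10.20, 9.92 and 9.93 with pristine particles and 10.30, 10.08 and 9.74 with silver nitrate. Differences from control were −0.18, −0.05 and −0.03, each ± 0.14 SE. For aged particles 3 of the 4 daf-16 probe sets lay wholly below control, by −0.18, −0.29 and −0.46 (limma adjusted p = 0.781, 0.699 and 0.601), and the remaining one differed by 0.00 ± 0.15. The transcript level says nothing about where the DAF-16 protein was in the cell, on which its activity depends.

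Of the 39 numbered ins genes in the reference gene table, 23 were measured, 6 of them members. The remaining 17 held no called gene in any comparison. With aged particles 9 of the 17 lay lower, with pristine particles 10 and with silver nitrate 12, with median log2 differences of −0.10, −0.04 and −0.19. Over all genes the shares lower were 53.8%, 49% and 51.8% and the medians −0.02, 0.00 and −0.01. Of these 17 genes, ins-37 lay at the floor on all arrays, ins-32 on 11 of 12.

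The further peptide genes with the lowest p were ins-24, ins-33, ins-11 and ins-31. The gene ins-33 stood higher with aged particles (8.17, 8.55 and 8.08) and silver nitrate (7.87, 8.58 and 7.78) than in control (7.63, 7.44 and 7.55). Neither exposed group overlapped control, while pristine arrays (7.45, 7.51 and 7.53) did. Its differences were 0.73 ± 0.20, 0.54 ± 0.20 and −0.04 ± 0.20 for aged particles, silver nitrate and pristine particles (SE, limma adjusted p = 0.383, 0.323 and 1).

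The gene ins-11, an intestinal peptide known for its part in avoidance of pathogenic bacteria, showed another order. Pristine arrays (6.56, 7.24 and 6.87) lay wholly below control (7.60, 7.85 and 7.41), with a difference of −0.73 ± 0.27 (SE, limma adjusted p = 0.5). Silver nitrate arrays (7.44, 6.81 and 6.54) overlapped control with a mean difference of −0.69 ± 0.27, and so did aged-particle arrays (0.04 ± 0.27). The gene ins-24 lay wholly below control with aged particles (−0.38 ± 0.09, limma adjusted p = 0.297) and silver nitrate (−0.29 ± 0.09, limma adjusted p = 0.226). The dim ins-31 lay wholly below control with pristine particles, by at least 0.96 on the log2 scale since 1 array was at the floor (log2 difference −0.96, limma adjusted p = 0.406).

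**Figure D3:**
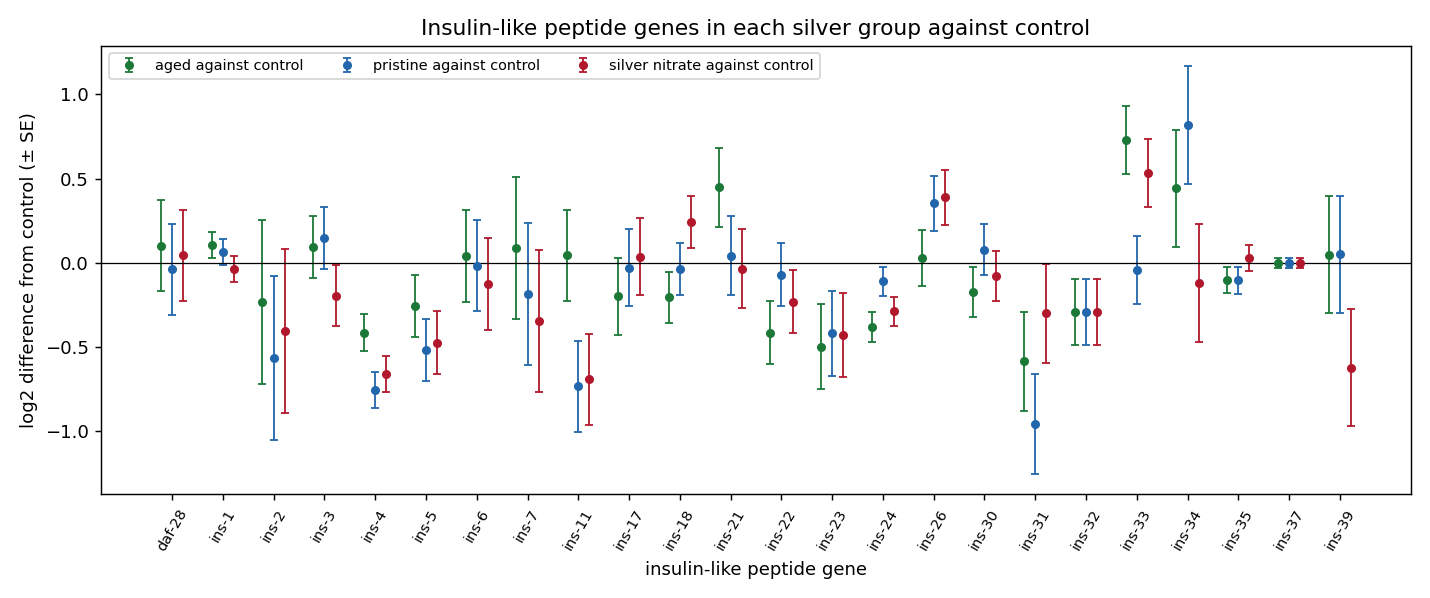
Log2 difference from control (vertical axis) with its SE for the 24 measured insulin-like peptide genes in each silver group, from the fit over all 12 arrays. The gene ins-4 lies below 0 in all 3 comparisons, ins-33 above 0 with aged particles and silver nitrate, and ins-37 is at the floor on every array.

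Between the receptor and DAF-16 lie the adaptor AAP-1 and the kinases PDK-1, AKT-1, AKT-2 and SGK-1. With TOR kinase genes and partners they made a list of 12 genes, all measured and none called. Its medians were 0.05, 0.03 and 0.00 with aged particles, pristine particles and silver nitrate. The lowest p belonged to rsks-1, which codes for the S6 kinase. Its aged-particle arrays (8.57, 8.35 and 8.50) lay above control (8.29, 7.75 and 7.93) by 0.48 ± 0.14 (SE, limma adjusted p = 0.413), and the other exposures differed by 0.07 and −0.01. Values against control of pptr-1, a phosphatase subunit acting on AKT-1, were −0.32, 0.09 and −0.10, and those of rict-1, the TORC2 subunit Rictor, were 0.04, 0.33 and 0.32.

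Regulators of DAF-16 outside the cascade were measured for 14 of 15 listed genes, with none called and medians of −0.06, −0.06 and −0.09. The gene eak-7, which restrains DAF-16 in the worm, lay wholly below control with aged particles (7.45, 7.68 and 7.58 against 7.98, 8.15 and 8.02, a difference of −0.47 ± 0.11 SE, limma adjusted p = 0.312). It also lay wholly below control with pristine particles (−0.29, limma adjusted p = 0.522) and differed by −0.03 with silver nitrate. The corepressor gene hcf-1 differed by 0.46, 0.38 and 0.41 (each ± 0.18 SE), the cofactor gene smk-1 by 0.06, 0.17 and 0.09, and the methyltransferase gene prmt-1 by −0.29, −0.05 and −0.13.

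Among targets that DAF-16 activates, called class I, 16 of 21 listed genes were measured. With aged particles 10 lay higher and 6 lower (median 0.14), with pristine particles 4 higher and 12 lower (median −0.12), and with silver nitrate 3 higher and 13 lower (median −0.18). None was called against control, where 53.8%, 49% and 51.8% of all genes lay lower in that order. Between aged particles and silver nitrate, where 0.253% of all probe sets were called, 12 of 16 were higher with aged particles (median 0.14), and 1 of them was called. Between aged and pristine particles 12 of 16 were likewise higher with aged particles (median 0.08), and none was called. Both comparisons use the same aged-particle arrays, and over all 17118 genes 7696 and 7092 were higher in them.

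That gene was scl-1, which codes for a secreted SCP-like protein needed for the long life of daf-2 mutants. Its control arrays read 6.30, 6.55 and 6.66, aged-particle arrays 6.82, 7.05 and 7.27, pristine arrays 6.11, 6.41 and 6.64 and silver nitrate arrays 6.13, 5.93 and 5.93. Aged-particle arrays lay above every other array, and silver nitrate arrays lay below control. Aged minus silver nitrate was 1.04 ± 0.16 (SE, limma adjusted p = 0.0472), or 2.06-fold. The difference kept its size under all settings but the call was at the edge: adjusted p ran from 0.0393 to 0.156 with 1 array left out, was 0.173 with the 6 compared arrays alone, and was 0.0553 with the replicate number as a block.

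The other class I genes named by lowest p went separate ways. The gene lea-1, for a protein linked to survival of drying, stood higher with pristine particles (0.90 ± 0.18 SE, limma adjusted p = 0.211) and silver nitrate (0.71 ± 0.18, limma adjusted p = 0.158), and differed by 0.25 with aged particles. The lysozyme gene lys-7 differed by −0.78 ± 0.20 with pristine particles (limma adjusted p = 0.31), by −0.30 with silver nitrate and by 0.25 with aged particles. The gene nnt-1, for the mitochondrial nicotinamide nucleotide transhydrogenase, differed by −0.07, −0.16 and −0.17, each ± 0.04 SE. The well-known DAF-16 target sod-3, a mitochondrial superoxide dismutase added to these after its values were seen, differed by 0.36, −0.59 and 0.45.

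Class II targets, which DAF-16 represses, were measured for 10 of 11 listed genes, with no call and medians of −0.09, −0.08 and −0.01. Against silver nitrate, 8 of 10 were lower with aged particles (median −0.27), where 50.1% of all genes were lower. Against pristine particles, 5 were lower and 4 higher with aged particles (median −0.04), where 53.7% of all genes were lower. The values of vit-5 were −0.02 against silver nitrate and 0 against pristine particles, so it carries little in either count. The gene dod-24 differed by 0.48, 0.04 and 0.65 (each ± 0.18 SE) and dod-22 by 0.05, −0.68 and 0.04 (each ± 0.21 SE), in the order aged particles, pristine particles and silver nitrate. For dod-19 the values were 0.10, −0.48 and 0.53, and for the thermosensory guanylyl cyclase gene gcy-18 −0.31, 0.03 and 0.06.

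**Figure D4:**
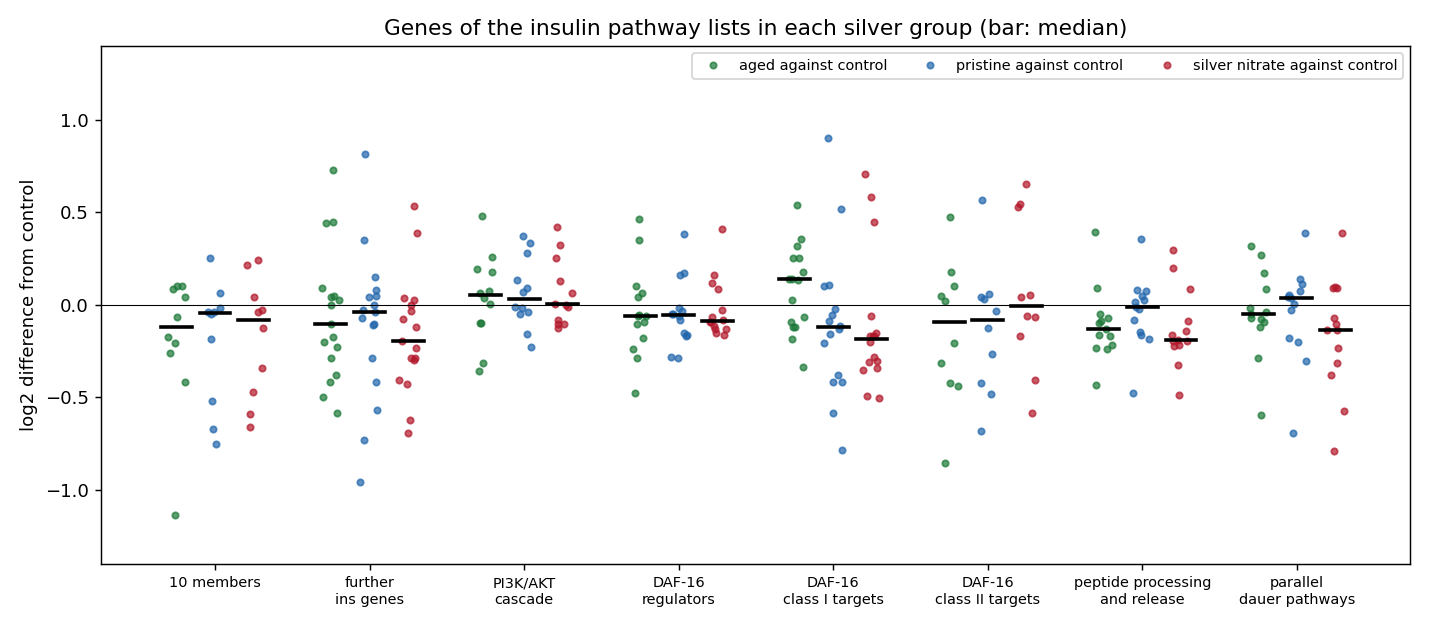
Log2 difference from control (vertical axis) of each measured gene in the 10 members and 7 further lists, for each silver group, with a bar at the list's median. DAF-16 class I targets have a median of 0.14 with aged particles, −0.12 with pristine particles and −0.18 with silver nitrate, and the remaining medians lie between −0.19 and 0.05 on the log2 scale.

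Peptides are cut from precursors and released from dense core vesicles, and all 13 listed genes of this machinery were measured, with no call. With aged particles 11 lay lower and 2 higher (median −0.13), with pristine particles 7 and 6 (median −0.01), and with silver nitrate 10 and 3 (median −0.19). Over all genes the shares lower were 53.8%, 49% and 51.8% in that order. The gene tbc-8, a regulator of dense core vesicle maturation, read 8.90, 8.74 and 9.03 with silver nitrate, wholly below the control arrays at 9.34, 9.45 and 9.35 (−0.49 ± 0.10 SE, limma adjusted p = 0.115). The vesicle membrane protein gene ida-1 lay wholly below control with pristine particles (−0.47 ± 0.11 SE, limma adjusted p = 0.264) and silver nitrate (−0.32 ± 0.11, limma adjusted p = 0.273). Its brightest probe set also has a name ending in _x_at. Values of ric-19, a partner in vesicle maturation, were −0.23, 0.05 and −0.09, and those of asna-1, which promotes insulin release in the worm, −0.10, 0.08 and −0.22.

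Dauer entry also depends on TGF-beta, steroid and cyclic GMP signalling, and the 13 listed genes of these routes were measured with no call. Their medians were −0.05, 0.04 and −0.13. The SMAD gene daf-14 differed by −0.29, −0.30 and −0.57 (each ± 0.15 SE), with silver nitrate arrays wholly below control (limma adjusted p = 0.157), and the SMAD gene daf-8 by −0.05, −0.18 and −0.31. Values of the sensory channel gene tax-4 were −0.60, −0.20 and −0.79 (each ± 0.37 SE), and those of the guanylyl cyclase gene daf-11 −0.09, −0.03 and −0.24.

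The genes whose pattern over the 12 arrays was most like that of ins-4 were K09E4.4 (Pearson r = 0.964), Y48G1C.5 (0.956), the neuropeptide-like gene nlp-68 (0.947), F25B3.5 (0.943) and F32H5.1 (0.911). They came from 12274 genes over the floor on every array, and the points share the 4 groups and the array scaling. All 5 had their highest mean in control (for nlp-68 9.51, against 9.28 with aged particles, 8.96 with pristine particles and 9.08 with silver nitrate), and none was called. Because they were picked by likeness to ins-4, itself highest in control, that order follows from the choice.

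Marker lists of cells that make or respond to the peptides were read on the same arrays, and all their genes were measured. The summed signal of 17 neuron markers was 20521 to 22829 in control, 20234 to 22892 with aged particles, 19707 to 22962 with pristine particles and 20046 to 22154 with silver nitrate, so the ranges overlapped. For 15 markers of amphid sensory neurons, which include the ASI and ASJ neurons that make ins-4 and daf-28, the ranges were 4795 to 6102, 5016 to 5454, 5036 to 5777 and 4313 to 5182. On the mean log2 scale silver nitrate arrays lay 0.08 to 0.14 below the control mean in the neuron list, and the control arrays spread from −0.05 to 0.08. No marker of either list lay at the floor on all 12 arrays, and 1 amphid marker did on all pristine arrays and 1 on all silver nitrate arrays.

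Lists of other tissues differed more. The mean log2 level of 14 germline markers, less the control mean, was 0.12 to 0.49 with aged particles, 0.38 to 0.55 with pristine particles and 0.56 to 0.62 with silver nitrate, with control arrays from −0.29 to 0.41. Their summed signal was 1649 to 2472 in control, 2135 to 2549 with aged particles, 2504 to 2765 with pristine particles and 2525 to 2719 with silver nitrate. Intestine markers (13 genes) stood 0.19 to 0.37 above the control mean with silver nitrate and 0.06 to 0.17 above it with pristine particles. With aged particles they ran from −0.04 to 0.20, and in control from −0.02 to 0.02. The summed intestine signal was 50998 to 56212 in control, 48576 to 54326 with aged particles, 50796 to 55698 with pristine particles and 48311 to 60000 with silver nitrate. Molting and epidermal markers (13 genes) stood 0.41 to 0.93 above the control mean with aged particles, where daf-2 was lowest. They ran from −0.48 to −0.13 with pristine particles and from −0.46 to 0.52 with silver nitrate. Their summed signal was 1728 to 2056 in control, 2362 to 3943 with aged particles, 1284 to 1587 with pristine particles and 1349 to 3020 with silver nitrate. With aged particles 11 of these 13 genes were higher than in control, 12 higher than with pristine particles and 11 higher than with silver nitrate. None was called against control, and 1 was called against each other exposure (0.111% and 0.253% of all probe sets). Over all 17118 genes, 7056, 7092 and 7696 were higher with aged particles. Body wall muscle markers (10 genes) stood 0.04 to 0.40 above the control mean with aged particles, with control arrays from −0.11 to 0.16. With pristine particles they ran from −0.20 to 0.01 and with silver nitrate from −0.20 to 0.03. Of these 10 genes, 9 were higher with aged particles than in control (median 0.30) and all 10 higher than with silver nitrate (median 0.37), none of them called. Over all 17118 genes, 7056 and 7696 were higher with aged particles in those comparisons. Their summed signal was 50616 to 59864 in control, 51881 to 63906 with aged particles, 50862 to 54040 with pristine particles and 44722 to 50887 with silver nitrate. The part of these shifts in the values of daf-2, ins-4 and age-1 was not tested.

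**Figure D5:**
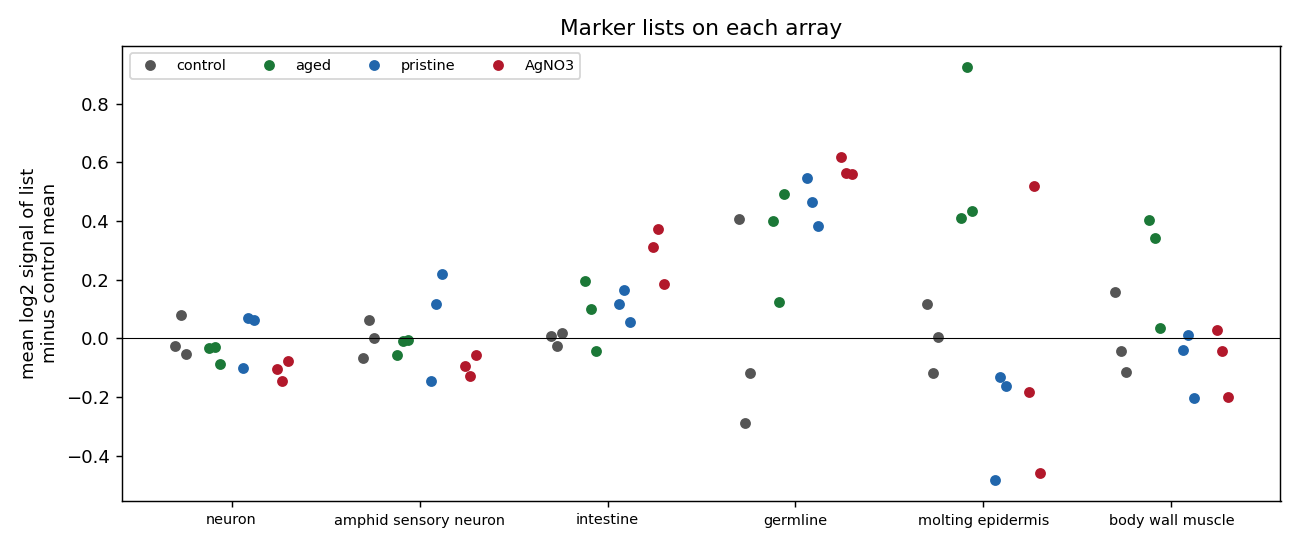
Mean log2 signal of each marker list on every array, less the control mean (vertical axis), with 1 point per array and a colour per group. Neuron lists lie within 0.22 of the control mean on all arrays, germline markers lie above it on all exposed arrays, and molting markers lie 0.41 to 0.93 above it with aged particles.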

How the data were processed

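Gene expression was measured in 12 samples on the Affymetrix C. elegans Genome Array, after Trizol extraction and labelling of 100 ng of total RNA with the IVT Express kit, per the labels' protocols. The deposited values are an intensity per probe set on a linear scale; the means after trimming 2% at each end were 500.1 to 500.2 on every array, so the authors' values were already scaled. How probe sets were summarised is not given in the sources used here.

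Of 22625 probe sets 77 array controls were set aside. Gene names came from the platform annotation, updated through the reference gene table by gene number for 20701 probe sets. Signals were multiplied to give all arrays 1 median (a shift against control of −0.03, −0.03 and −0.07 on the log2 scale for aged, pristine and silver nitrate), floored at 16 and put on the log2 scale. The floor held 13.7% to 15.8% of probe sets per array. All arrays entered 1 limma model (limma 3.58.1, R 4.3.3) with a mean per group, 8 residual and 0.94 prior degrees of freedom, tested on simulated data. The 7 contrasts and the F test were adjusted by Benjamini-Hochberg over 22548 probe sets.

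Named were all members, the 4 genes of each further list with the lowest F test p, and the 5 genes most correlated with the member of lowest F test p; 1 gene so named is not reported here. Members and lists were chosen with earlier results of these data known. Alternatives were quantile normalization, the deposited scaling, floors of 1 and 64, a brightness filter, the compared arrays alone, a replicate block, a trend and robust fit, and leaving out each array.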

Additional observations from a re-analysis of the deposited data

How the results depend on the processing

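No member passed in the test over all arrays, and 1 gene, ins-4, passed under some settings. The count of members called was 1 in place of 0 above median brightness for pristine particles, for silver nitrate and for any difference, and 1 with the trend and robust fit for silver nitrate and for any difference. Leaving out 1 array gave 0 to 1 for these and for the mean of the silver groups, with the 1 each time without control replicate 1. The brightness filter tests fewer probe sets, and the cause of the other changes was not tested. Differences of ins-4 kept their size with all arrays, under every setting (−0.76 to −0.73 with pristine particles, −0.66 to −0.59 with silver nitrate). Those of daf-2 with aged particles did so too (−1.14 to −1.07). No value of daf-2 could be had above median brightness, since even its brightest probe set fell below that limit.

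Signs turned only for genes whose groups overlapped, none of them called. The deposited scaling turned ins-1 (0.033) and daf-16 (0.043) with silver nitrate and ins-6 with pristine particles (0.013), and a floor of 64 turned daf-28 with aged particles (−0.032). With 1 array left out, ranges that crossed 0 were, for aged particles, −0.11 to 0.31 (ins-6), −0.13 to 0.36 (ins-7), −0.13 to 0.35 (daf-28), −0.11 to 0.0023 (age-1); for pristine particles, −0.17 to 0.25 (ins-6), −0.59 to 0.17 (ins-7), −0.15 to 0.10 (ins-18), −0.27 to 0.21 (daf-28); and for silver nitrate, −0.074 to 0.028 (ins-1), −0.32 to 0.14 (ins-6), −0.19 to 0.29 (daf-28), −0.16 to 0.12 (daf-16). The call of scl-1 between aged particles and silver nitrate, examined after the data were seen, ended with floors of 1 and 64, with the deposited scaling (limma adjusted p = 0.0632) and in 9 of 12 leave-one-out fits.

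No label says that a replicate number marks shared material, and same-numbered arrays of different groups correlated in their deviations at −0.24 to 0.22, over 0.1 in 5 of 18 pairs, so the numbers were not taken as pairs. As a hint from the data, 8 of 12 arrays were closest to their own number, and all same-numbered pairs between silver groups were above 0 (0.023 to 0.217). With the replicate block no member was called (0 in every comparison; ins-4 with silver nitrate −0.66, limma adjusted p = 0.0981). The low brightness of ins-7 and of the daf-2 probe sets limits what they can show, most of all for the 2 dimmest of daf-2.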
